A study of Rattus norvegicus with 12 samples.

Results

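The liver miRNAs described here are the mature products of the hairpins of miR-122, miR-192 and miR-194. Each has a 5p and a 3p arm, which gives 6 members: rno-miR-122-5p, rno-miR-122-3p, rno-miR-192-5p, rno-miR-192-3p, rno-miR-194-5p and rno-miR-194-3p, written below without the species prefix rno for rat. A row of the deposited tables was taken where its name equalled a member. All 6 had a row among the 574 miRNAs of the heart table. In the exosome table, 4 had a row among 367 miRNAs, namely both arms of miR-122 and the 5p arms of miR-192 and miR-194.

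The 12 samples, 6 labelled heart and 6 labelled Serum, are small RNA libraries of SD (Sprague Dawley) rats. The series title concerns miRNAs of exosomes, the small vesicles that cells release, in cardiac healing after ischemia-reperfusion injury. The design text describes ligation of the left coronary artery for 30 minutes and reperfusion for 1 week. The authors' deposited tables compare groups headed CK and M, once for heart and once for exosome, and the serum samples are the only ones left for the latter. The labels do not describe how exosomes were isolated.

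What CK and M stand for, which of them had the ligation, and which sample belongs to either are not given in the labels, and neither is the age of the animals. All samples carry the same strain label. The groups are therefore named as headed. The arithmetic of the deposited means showed 3 libraries per group, and the reads of every member could be recovered for every library. A level below is the number of reads of a miRNA divided by the size factor of its library, so that libraries of 1 table are on 1 scale. Libraries are numbered by increasing depth within a group, so library 1 of CK and library 1 of M have nothing in common. Estimated depth ran from 2253000 to 6610000 miRNA reads per heart library and from 1696000 to 5328000 per exosome library.

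A miRNA is a short RNA cut from a hairpin precursor. It guides Argonaute proteins to messenger RNAs that pair with its seed, bases 2 to 8, and lowers their translation and stability. miR-122 is the dominant miRNA of hepatocytes, where it acts in lipid metabolism, and its level in serum or plasma is widely used as a marker of liver injury. miR-192 and miR-194 are transcribed together, respond to p53, and are abundant in the epithelium of gut and kidney as well as in liver, so they are less particular to liver than miR-122.

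The mature sequences of the 6 members are shown because the seed decides which messages a miRNA can pair with. They are rat RefSeq sequences on the assembly GRCr8, which is not the assembly named in the submitters' processing notes, and all 6 names were matched. Each is written 5′ to 3′ with its seed in capitals.
miR-122-5p: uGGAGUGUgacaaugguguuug
miR-122-3p: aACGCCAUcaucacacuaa
miR-192-5p: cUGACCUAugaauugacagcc
miR-192-3p: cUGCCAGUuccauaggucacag
miR-194-5p: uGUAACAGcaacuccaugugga
miR-194-3p: cCAGUGGGgcugcuguuaucu
The 6 seeds differ from each other. Among the 693 mature names of the RefSeq table, the seed UGACCUA of miR-192-5p occurred in 2, the second being miR-215.
miR-215: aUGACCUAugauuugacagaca
Values for miR-215 were not analysed here, because it had no row in either table. The sources used here do not say how reads that match several miRNAs were assigned.

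The hairpins are shown because they tie the members together. The mature arms are in capitals, the rest of each precursor in lower case, and positions are on GRCr8. Mir122 lies at chr18:61028817-61028901 on the plus strand, Mir192 at chr1:212994209-212994318 on the plus strand, and Mir194-2 at chr1:212994024-212994108 on the plus strand, so that 100 bases separate Mir194-2 from Mir192. Mir194-1 lies at chr13:99382716-99382798 on the plus strand, 191 bases from Mir215.
Mir122: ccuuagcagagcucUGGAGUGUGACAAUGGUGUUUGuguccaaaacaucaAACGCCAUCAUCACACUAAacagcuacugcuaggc
Mir192: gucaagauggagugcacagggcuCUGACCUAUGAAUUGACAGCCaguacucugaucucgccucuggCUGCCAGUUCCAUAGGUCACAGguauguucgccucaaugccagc
Mir194-2: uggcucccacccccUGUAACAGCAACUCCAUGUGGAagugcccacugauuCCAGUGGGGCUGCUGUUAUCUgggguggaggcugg
Mir194-1: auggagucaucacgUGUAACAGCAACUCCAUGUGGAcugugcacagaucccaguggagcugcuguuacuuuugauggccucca
The 2 miR-194 hairpins give the identical 5p arm, so reads of miR-194-5p cannot be assigned to the cluster with miR-192 or to the one with miR-215. The table annotates miR-194-3p on Mir194-2 alone.

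The tissue labels were checked against 11 miRNAs of heart muscle. Shares are given in ppm of all miRNA in a group mean. These 11 summed to 160657 ppm in the heart table for CK and 137812 ppm for M, against 4391 and 4122 ppm in the exosome table. Neither the 3p arm of miR-192 nor that of miR-194 had a row in the exosome table, and the 3 miRNAs of exocrine pancreas had none either. The label heart thus went with muscle miRNAs, and the exosome table held far less of them.

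The 3 liver miRNAs occupied the exosome and heart tables in very different proportions. miR-122-5p was a major miRNA of the exosome table, at 1.37% of all miRNA in CK (13661 ppm) and 0.702% in M, where it ranked 17 and 28 of 367. In heart its share was 3.97 ppm in CK and 20.9 ppm in M, ranks 309 and 215 of 574. miR-192-5p was the leading liver miRNA of heart, at 265 ppm in CK and 305 ppm in M, and stood at 889 and 358 ppm in the exosome table. miR-194-5p was similar in both, with 62.2 and 47.6 ppm in heart and 49.3 and 55.4 ppm in the exosome table. Shares of separately normalized tables are set side by side as a description, and no difference between the tables in these levels was tested.

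**Figure D1:**
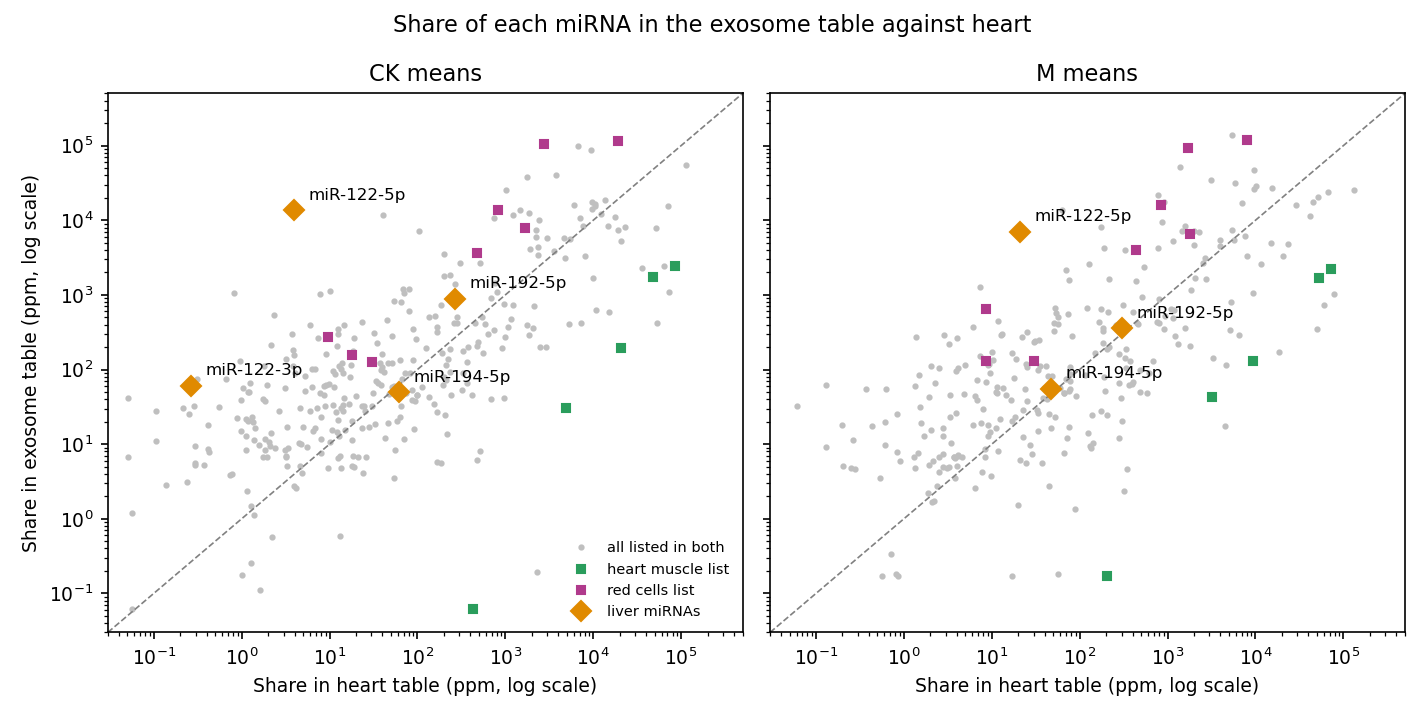
Share of each miRNA in the exosome table (y axis, ppm, log scale) against its share in the heart table (x axis, ppm, log scale), for the CK means (left) and the M means (right); each point is a miRNA above 0 in both, and the dashed line marks equal shares. miR-122-5p lies far above the line at 3.97 ppm in heart and 13661 ppm in the exosome table for CK, the red cell list lies above the line, miR-194-5p lies near it and the heart muscle list lies below it.

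The exosome share of miR-122-5p was 3444 times its heart share in CK, rank 1 of 323 miRNAs, and 336 times in M, rank 3 of 290. Ranked were the miRNAs above 0 in both tables for that group, with an overall mean of at least 10 in either table. The median of all those miRNAs was 2.10 in CK and 1.70 in M. miR-192-5p had a ratio of 3.36 in CK and 1.17 in M, and miR-194-5p 0.793 and 1.16. The ranks include miRNAs with very few heart reads: both miRNAs above miR-122-5p in M, miR-802-5p and miR-138-2-3p, had 1 and 2 reads in M heart, so their ratios are not given. miR-375-3p, a miRNA of endocrine and epithelial cells, had a ratio of 1295 in CK from 15 heart reads, and 201 in M from 12.

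Read the other way, the heart share of miR-122-5p was 0.0290% of its exosome share in CK and 0.297% in M. For miR-223-3p, a myeloid and platelet miRNA, it was 0.344% and 0.464%, and for the red cell miRNA miR-451-5p 13.3% and 11.01%. miR-192-5p in heart reached 29.8% of its exosome share in CK and 85.3% in M. miR-194-5p reached 126% and 85.9%. miR-122-5p in CK heart was thus lower, relative to the exosome table, than any of the other miRNAs compared, and miR-192-5p and miR-194-5p were not.

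In the exosome table, miR-122-5p had levels of 22152, 30041 and 38585 in CK and of 33934, 11588.5 and 5380.3 in M. The 3 CK libraries lay close together, M library 1 lay among them, and the other M libraries were below every CK library, so the groups overlapped. These levels rest on 16958, 40164 and 92818 reads in CK and on 26044, 9365 and 4366 in the M libraries. The mean was 30259.5 ± 8218 (SD, n = 3) in CK and 16967.5 ± 15017 (SD, n = 3) in the M libraries. The M mean was 0.561 times the CK mean, which is -0.83 as log2. The DESeq test of the authors' deposited table gave p = 0.158 and an adjusted p of 0.679. The spread between M libraries, 6.31-fold from lowest to highest, was larger than the difference between the means. Without M library 1 the log2 fold was -1.83, and limma on log2(level + 1) then gave a log2 difference of -1.90 with an adjusted p of 0.0029, against -1.20 and 0.301 with all libraries, so this library alone decided that call. Over all miRNAs, limma then called 0 higher and 1 lower in M of 284, against 0 and 0 of 284 with all libraries.

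The 3p arm of miR-122, its less abundant strand, did not move with the 5p arm. Its exosome levels were 0, 286 and 117 in CK and 158, 152 and 107 in M, from 0, 382 and 282 reads and from 121, 123 and 87 reads. The M libraries lay within the range of the CK libraries. The means were 134 ± 144 (SD, n = 3) and 139 ± 27.7 (SD, n = 3). The log2 fold was 0.05, and the DESeq test of the authors' deposited table gave p = 0.977 and an adjusted p of 1. The sign of this fold turned under share scaling and without CK library 1, where the log2 fold was -0.54.

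The share of the 3p arm in all miR-122 reads differed from library to library. It was 0.942% in CK library 2 (exact 95% interval 0.85 to 1.04) and 0.303% in CK library 3 (0.269 to 0.340). CK library 1 had 0 of 16958 reads, for which the same interval reached 0.0218%. In M it was 0.462% in library 1, 1.296% in library 2 and 1.95% in library 3, highest where the 5p arm was lowest. The 5p reads are part of the denominator, so fewer of them raise this share by themselves. CK did not have that pattern, since library 1 had the lowest 5p level of CK and no 3p read. These intervals cover counting error only, since PCR copies of a molecule were not marked.

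miR-192-5p had a lower mean in M in the exosome table, in each library but not past the adjusted threshold. Its levels were 2641, 1176 and 2089 in CK and 1039.7, 801 and 757 in M, from 2022, 1572 and 5025 reads and from 798, 647 and 614 reads. All 3 M libraries lay below all 3 CK libraries. Of the 284 exosome miRNAs whose reads were recovered and whose larger mean was at least 10, 8.10% had all M libraries below CK. The mean was 1969 ± 740.1 (SD, n = 3) in CK and 866 ± 152 (SD, n = 3) in M, a fold of 0.440 and a log2 fold of -1.19. For this miRNA the authors' deposited table held a DESeq p of 0.0289 and an adjusted p of 0.259, so the difference did not pass the threshold of 0.05 over all miRNAs. The log2 fold stayed between -1.45 and -0.92 when any 1 library was left out.

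miR-194-5p differed widely between exosome libraries of the same group. Its exosome levels were 242, 57.6 and 28.3 in CK and 30.0, 136 and 235 in M, from 185, 77 and 68 reads and from 23, 110 and 191 reads. Both groups ran over almost the same range, 8.55-fold in CK and 7.85-fold in the M libraries. The means were 109 ± 116 (SD, n = 3) and 134 ± 103 (SD, n = 3). The log2 fold was 0.29, with p = 0.680 and an adjusted p of 1 by DESeq in the authors' deposited table. The sign was not stable, with log2 folds from -0.39 to 1.64 when 1 library was left out.

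**Figure D2:**
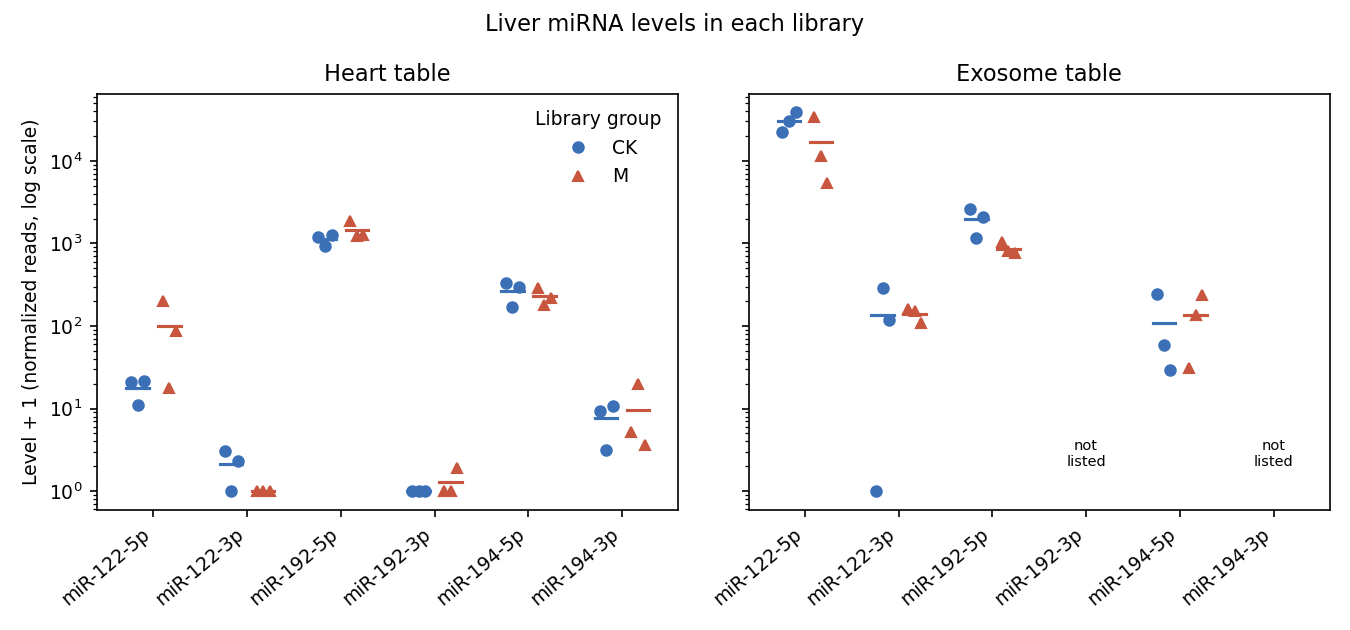
Levels of the 6 liver miRNAs (x axis) in each library, as normalized reads plus 1 on a log scale (y axis), in the heart table (left) and the exosome table (right); points are libraries of CK (circles) and M (triangles), 3 per group, and short lines are group means. miR-122-5p reaches 38585 in the exosome table and 197 in heart, and miR-192-5p in the exosome table is the member whose CK and M libraries separate.

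In heart, miR-122-5p was a rare miRNA whose M libraries were spread widely. Its levels were 19.95, 10.1 and 20.6 in CK and 197, 16.6 and 85.6 in M, from 19, 14 and 32 reads and from 93, 17 and 97 reads. M libraries 1 and 3 stood above every CK library, and M library 2 lay within the CK range. The mean was 16.9 ± 5.88 (SD, n = 3) in CK and 99.9 ± 91.2 (SD, n = 3) in M, a 5.91-fold higher mean and a log2 fold of 2.56. The DESeq test of the authors' deposited table gave p = 0.150 and an adjusted p of 0.870, and the SD in M was almost as large as the mean. limma on log2(level + 1) gave a log2 difference of 1.97 (SE 0.76) and an adjusted p of 0.184 over 283 miRNAs. Without M library 2 it gave 2.93 and an adjusted p of 1.17e-05, so that library decided the call. Leaving M library 2 out changed other calls too. Over all miRNAs, limma then called 9 higher and 6 lower in M of 281, against 1 and 1 of 283 with all libraries. Without M library 1 limma gave 1.19 for miR-122-5p and an adjusted p of 0.365, and the log2 fold of the means fell from 2.56 to 1.60. In such bulk samples, a different number of cells of a type and a different amount of RNA per cell cannot be told apart. Where the heart reads of miR-122-5p came from was not tested.

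Red cell and myeloid miRNAs were read beside it. miR-451-5p, which red cells hold in large amounts, had heart levels of 2715, 1346 and 2052 in CK and 2063, 1672 and 2530.1 in M. The M libraries lay within its CK range, and library 2 was the lowest of M, as for miR-122-5p. miR-144-5p, made from the cluster of miR-451, had 51.5, 18.8 and 52.9 in CK and 59.4, 20.6 and 43.2 in M, with the same order as miR-122-5p within each group. The other arm of that hairpin, miR-144-3p, did not have that order in either group. Its levels were 93.5, 62.9 and 76.7 in CK and 42.5, 34.3 and 47.6 in M, each M library below every CK library. The myeloid miRNA miR-223-3p had 262.5, 125 and 130.2 in CK and 259, 434 and 208 in M, and its highest library was M library 2, the M library with the least miR-122-5p. The 8 listed red cell names summed to 24938 ppm in CK heart and 12765 ppm in M heart, mainly through miR-486, with means of 81592 and 37987. The 4 of them with recovered reads, a small part of that sum, had levels of 1543 to 2976 in CK and 1837 to 2782 in M. The 6 platelet and myeloid names summed to 9392 ppm in CK heart and 6856 ppm in M heart, mainly miR-191a-5p and miR-150-5p. The other 4, the arms of miR-223 and miR-142, went the opposite way, with sums of 703 to 1068 in CK and 1370.03 to 2130.1 in M. The epithelial names, given below as a list, had mixed library orders. miR-200a-3p was highest in M library 1, at 70.1, and at 7.06 in M library 3, below each CK library. miR-200c-3p was 387, 130 and 308 in CK and 191, 75.4 and 302 in M. The part of these cell types in the values of miR-122-5p was not tested.

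miR-122-3p had 2, 0 and 2 reads in the CK heart libraries and 0 in each M library. Over the group, 4 of 69 miR-122 reads in CK were of the 3p arm, or 5.80% (exact 95% interval 1.60 to 14.2). In M it was 0 of 207, for which the same interval ran from 0 to 1.77%, so the intervals overlapped. Both pool the reads of a group, cover counting error only, and do not cover the spread between libraries. No fold is given at this depth.

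miR-192-5p in heart differed little between the groups. Its levels were 1211, 926 and 1247 in CK and 1870.3, 1246 and 1267 in M. M library 1 was the highest of the 6 and the others lay close together. The means were 1128 ± 176 (SD, n = 3) and 1461 ± 355 (SD, n = 3), a fold of 1.295 and a log2 fold of 0.37. DESeq, in the authors' deposited table, gave p = 0.515 and an adjusted p of 1. Upper-quartile scaling brought the log2 fold to -0.000599. Its 3p arm had 1 read in M library 3 and 0 elsewhere, against 4367 reads of the 5p arm in CK and 3590 in M.

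miR-194-5p in heart had levels of 329.7, 169 and 296 in CK and of 284, 178 and 219.7 in M. The groups overlapped, with library 2 lowest in each. The means were 265 ± 84.6 (SD, n = 3) and 227 ± 53.6 (SD, n = 3), which is -0.22 as log2. DESeq, in the authors' deposited table, gave p = 0.511 and an adjusted p of 1. miR-194-3p was rare, with 8, 3 and 15 reads in CK and 2, 19 and 3 in M. Its levels of 8.40, 2.17 and 9.67 in CK and 4.25, 18.6 and 2.65 in M overlapped, and the log2 fold of 0.33 (p = 0.712, adjusted p = 1, DESeq, the authors' deposited table) turned to -0.97 without M library 2. Over pooled reads, the 3p arm held 2.52% of 1033 miR-194 reads in CK (exact 95% interval 1.65 to 3.67) and 4.07% of 589 in M (2.63 to 6.002), and the intervals overlapped. Such intervals cover counting error only and not the spread between libraries. In M, 19 of the 24 reads of the 3p arm came from library 2. The share was not tested between groups.

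No member passed an adjusted p of 0.05 in either of the authors' deposited tables. The background was 0.697% of 574 miRNAs in heart and 3.81% of 367 in the exosome table. At an unadjusted p below 0.05 there were 0 of 6 members in heart, against 7.67% of all miRNAs, and 1 of 4 in the exosome table, miR-192-5p, against 13.9%. The CK and M libraries overlapped for all 6 members in heart, where 30.0% of 283 miRNAs with recovered reads and a larger mean of at least 10 did not overlap. They did not overlap for 1 of 4 members in the exosome table, against 12.7% of 284. The median log2 fold of the members with a fold was 0.35 in heart and -0.39 in the exosome table, beside 0.02 and -0.35 over all miRNAs. With limma, 0 members passed an adjusted p of 0.05 in either table with all libraries, against 0.707% of 283 miRNAs in heart and 0% of 284 in the exosome table. At an unadjusted p below 0.05, limma gave 67 of the 283 heart and 32 of the 284 exosome miRNAs, miR-122-5p among both and miR-192-5p among the latter.

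**Figure D3:**
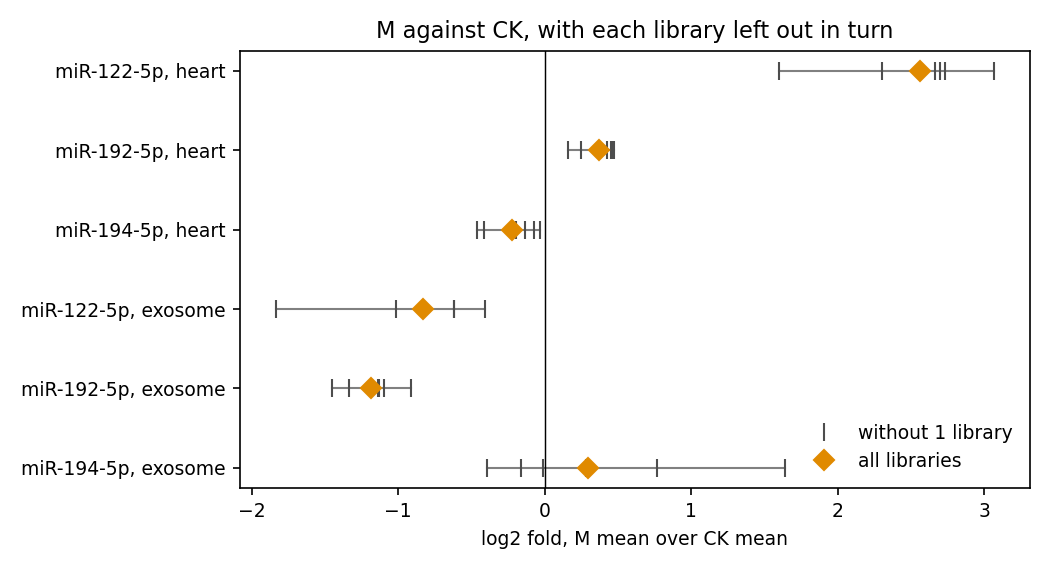
log2 fold of the M mean over the CK mean (x axis) for the 5p arms of the liver miRNAs in heart and exosome tables (y axis); diamonds use all libraries and ticks leave out each of the 6 libraries in turn. Both miR-122-5p and miR-192-5p lie above 0 in heart and below 0 in the exosome table at every tick (upper-quartile scaling, not plotted, puts miR-192-5p in heart at -0.000599). The exosome ticks of miR-194-5p have the widest spread and fall on both sides of 0, and among the heart rows miR-122-5p has the widest.

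The difference between heart and exosome tables in the M against CK change was tested by relabelling CK and M within each table, for the 3 members with levels of at least 10 in both. It uses the mean of log2(level + 1), and 0.005 is the smallest p that the 400 relabellings can give. The relabelling takes CK and M as alike in both tables, so a change in either table alone can also lower p. A low p therefore does not show by itself that the changes differ. For miR-192-5p the change was 0.36 in heart and -1.12 in the exosome table, a difference of 1.48 (exact two-sided permutation test, p = 0.01, n = 3 per group). Without any 1 library the difference stayed between 1.23 and 1.81, with p from 0.005 to 0.04. For miR-122-5p the change was 1.97 and -1.20, a difference of 3.17 with p = 0.055 in the same exact test. That difference ran from 2.39 to 4.13 without any 1 library, with p from 0.015 to 0.1, and p was lowest without heart M library 2 or exosome M library 1. For miR-194-5p the difference was -0.61 with an exact permutation p of 0.67. These p-values are not adjusted over the 3 miRNAs.

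The proportions between the liver miRNAs turned over between heart and exosome tables. In heart, miR-192-5p stood 66.7-fold above miR-122-5p in CK and 14.6-fold in M. In the exosome table, miR-122-5p stood 15.4-fold above miR-192-5p in CK and 19.6-fold in M. Within libraries the exosome ratio of miR-122-5p to miR-192-5p was 8.39, 25.5 and 18.5 in CK and 32.6, 14.5 and 7.11 in M, and it was above 1 in each. In heart it was 0.0165, 0.0109 and 0.0165 in CK and 0.106, 0.0134 and 0.0675 in M, so that M libraries 1 and 3 had several times the CK ratio and M library 2 did not.

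The ratio of miR-192-5p to miR-194-5p, whose hairpins Mir192 and Mir194-2 are neighbours, spread less among heart than among exosome libraries. The heart ratio of miR-192-5p to miR-194-5p was 3.67, 5.47 and 4.21 in CK and 6.57, 6.99 and 5.77 in M. Each M library had a higher ratio than any CK library, a pattern chosen after the values were seen and not tested. In the exosome table the ratio was 10.9, 20.4 and 73.9 in CK and 34.7, 5.88 and 3.21 in M. Ratios between different miRNAs also carry differences in how well each ligates to the adapters.

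**Figure D4:**
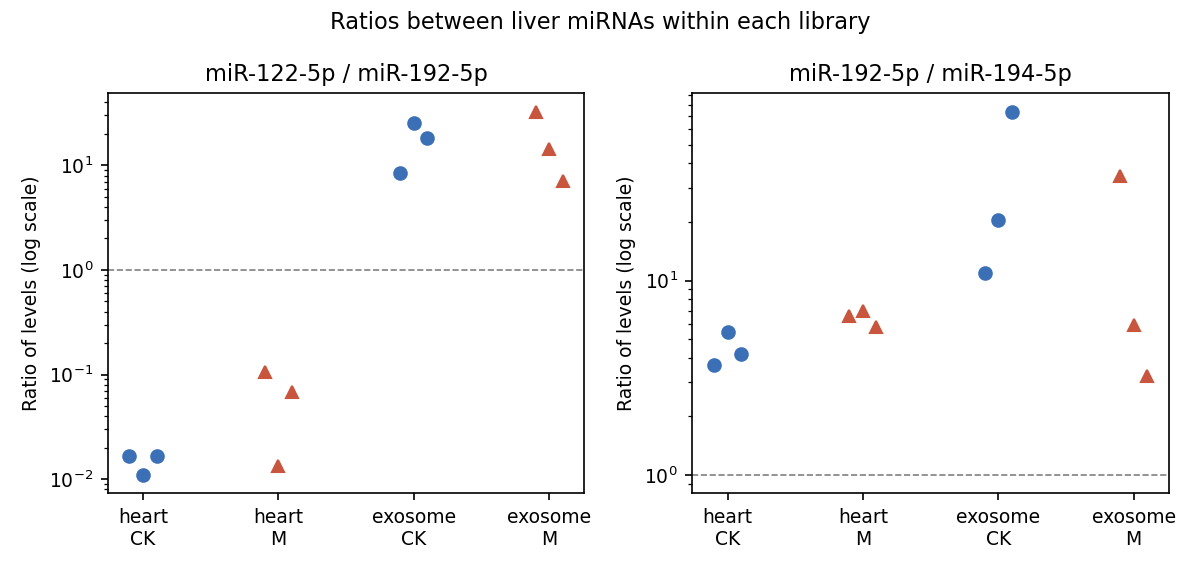
Ratio of levels within each library (y axis, log scale), miR-122-5p to miR-192-5p (left) and miR-192-5p to miR-194-5p (right); each point is a library of CK (circles) or M (triangles), 3 per group, and the dashed line marks equal levels. The left ratio lies below 1 in each heart library and above 1 in each exosome library, and the right ratio spans 3.67 to 6.99 in heart and 3.21 to 73.9 in the exosome table.

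The order of the members by level followed from these values. In CK heart it was miR-192-5p, miR-194-5p, miR-122-5p and miR-194-3p with no overlap between the libraries of neighbours, and miR-122-3p and miR-192-3p at or under 3 reads per library. In M heart, miR-194-5p at 178 to 284 and miR-122-5p at 16.6 to 197 overlapped, and so did miR-122-5p and miR-194-3p. In the exosome table the order was miR-122-5p, miR-192-5p, and then miR-122-3p and miR-194-5p, whose libraries overlapped in both groups.

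Profiles over the 4 group means, heart and exosome for CK and M, were compared among 294 miRNAs, each centred on its own mean of log2(ppm + 1). The likeness is the largest gap between centred profiles, so 0 is identical. The 5 most like miR-122-5p were miR-223-3p at a gap of 1.73, miR-92b-3p at 2.51, miR-191a-3p at 2.74, miR-142-5p at 2.74 and miR-335 at 2.84. All of these gaps exceed 1 log2 unit, so miR-122-5p had no close match. miR-192-5p was closest to miR-146a-5p at 0.19, miR-350 at 0.20 and miR-125a-3p at 0.21. miR-194-5p was closest to miR-1839-5p at 0.07, miR-181b-5p at 0.26 and miR-374-3p at 0.30.

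A list of 16 other miRNAs that are enriched in liver but also made elsewhere was read beside the members. All 16 had a row in heart, where 6 had a higher and 10 a lower mean in M. Their median log2 fold was -0.05, beside 0.02 for all miRNAs. One passed the authors' adjusted threshold, miR-483-3p, an imprinted miRNA of the Igf2 gene. Its heart levels were 76.7, 63.7 and 90.9 in CK and 21.2, 4.89 and 28.2 in M, and it fell by 2.09 on the log2 scale (adjusted p = 0.022, DESeq, the authors' deposited table). The most abundant members in heart were miR-378a-3p, which lies in the Ppargc1b gene of energy metabolism, miR-148a-3p and miR-22-3p. miR-148a-3p, abundant in hepatocytes, had means of 97883 in CK and 197745 in M with an adjusted p of 0.574. miR-378a-3p had means of 229711 and 238414.

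Of the 16, 14 had a row in the exosome table, 5 with a higher and 9 with a lower mean in M, and the median log2 fold was -0.32 beside -0.35 for all miRNAs. miR-22-3p fell by 1.19 on the log2 scale, from a mean of 34363 to 15100.1 (adjusted p = 0.0129, DESeq, the authors' deposited table), a size close to that of miR-192-5p. miR-148a-3p had means of 17753 and 27166, higher in M with an adjusted p of 0.469. The 2 most abundant liver-enriched miRNAs beside miR-122-5p thus had opposite directions in the exosome table. miR-802-5p, which hepatocytes and pancreas make, was above 0 in CK library 2 at 18.7 and in M library 1 at 233 and was 0 in the other exosome libraries, while miR-122-5p was at 5380.3 or more in all 6.

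Epithelium of gut and kidney also expresses miR-192 and miR-194. A list of epithelial miRNAs, not all particular to gut and kidney, was read beside miR-192-5p. Of 11 listed names 9 had a row in the exosome table, 6 with a lower and 3 with a higher mean in M, and the median log2 fold was -1.49 beside -0.35 for all miRNAs. None passed the adjusted threshold. miR-375-3p had levels of 2093, 1126 and 3882 in CK and 537, 845 and 596 in M, without overlap (p = 0.0259, adjusted p = 0.25, DESeq, the authors' deposited table). miR-203a-3p, of keratinised epithelium, had means of 1851 and 795 with an adjusted p of 0.679, and miR-200a-3p had means of 410 and 94.4 with an adjusted p of 0.422. The summed level of the list was 2118 to 7783 in CK and 1845 to 2308 in M. Much of it was miR-375-3p and miR-203a-3p, with 1069 and 836 of 2319 ppm in CK and 273 and 329 of 833 ppm in M. In heart 10 had a row, 8 with a higher mean in M, and the sums were 1296 to 1592 in CK and 2179.9 to 3893 in M. Most of that difference came from miR-31a-5p, with means of 70.8 and 926 and a level of 2009 in M library 2, and from miR-204-5p, with means of 829.4 and 1452. Neither passed the adjusted threshold (adjusted p = 0.641 and 0.663, DESeq, the authors' deposited table). The part of epithelial cells in the values of miR-192-5p was not tested. The 3 exocrine pancreas miRNAs summed to 6.64 ppm in CK heart and 8.95 ppm in M heart, and 2 of the 3 had a higher mean in M.

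The lists named for blood cells made up much of the exosome table, and the part of such cells in these sums was not tested. The red cell list, with 8 of its 10 names in each table, summed to 248110 ppm in CK and 240006 ppm in M there, against 24938 and 12765 ppm in heart. Most of the exosome sum in CK was miR-486 and miR-92a-3p, at 116455 and 106094 ppm, while miR-451-5p held 3596 ppm. In M these held 118921, 93843 and 3966 ppm. miR-486, the most abundant name of the list, had exosome means of 257951 and 287407 with an adjusted p of 1. The 6 platelet and myeloid miRNAs summed to 127507 and 167776 ppm in the exosome table and to 9392 and 6856 ppm in heart, and none passed the adjusted threshold in either table. miR-122-5p held 13661 and 7020.7 ppm beside these. In exosome M the red cell sum was close to its CK value and the platelet and myeloid sum was higher, while miR-122-5p and miR-192-5p had lower means. Most of that higher sum was miR-191a-5p, at 98427 ppm in CK and 140726 ppm in M. Of the 6 platelet and myeloid names, 5 had a higher and 1 a lower mean in M. The lower one, miR-150-5p, held 10043 ppm in CK and 5296 ppm in M, a log2 fold of -0.80. Of the 8 red cell names, 5 had a higher and 3 a lower mean in M. Of the 11 heart muscle miRNAs, 2 had a higher and 9 a lower mean in M heart, and 5 had a row in the exosome table, 4 of them with a higher mean in M.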

How the data were processed

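The members and lists were chosen with earlier results of these data known. Per the labels' protocols, RNA was isolated with Trizol and libraries made with the NEBNext small RNA kit. The submitters' processing notes name DESeq 1.30.0, Bowtie2 2.2.6 and the build mRatBN7.2, with no role or order. Trimming, annotation release and filters: not given in the sources used here. Per the file headers, the authors deposited for each miRNA the mean normalized count of all libraries, of CK and of M (a signal: counts divided by size factors). The authors deposited the fold as the ratio of M to CK, its log2, and a p-value with its adjusted p-value. Nothing says that samples came from separate animals, so a p-value measures only how far these samples scatter, which can be technical.

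Reads were recovered from the means, which have 15 significant digits: each is a sum of whole reads times 3 fixed steps, 1 per library. Means with at most 0.01 expected false solutions were searched, 83.4% to 89.2% of each column, and each had exactly 1 solution. The exosome miR-122-5p lay above that limit and was solved by a step added after seeing the data: 1 triple of reads gave its M mean and 22 its CK mean, and only 1 of these gave the deposited p when the authors' DESeq test was recomputed (0.158 against 0.150 for the next). This recomputation equalled the deposited p for 104 of 450 heart and 35 of 289 exosome miRNAs (relative tolerance 1e-06) and differed for the rest, mostly with a larger deposited p. limma 3.58.1 (R 4.3.3) was run on log2(level + 1) of recovered miRNAs whose larger mean was at least 10, adjusted by Benjamini-Hochberg. Search and fit were tested on simulated data. Python 3.11.15 and scipy 1.17.1 gave exact intervals and permutation tests. Named miRNAs are all members, the most alike profiles, up to 3 of each list by level and any list member past the threshold; others were picked after seeing values. The alternatives were scaling, pseudocount, denominator, threshold and each library left out.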

Additional observations from a re-analysis of the deposited data

Results flagged for a closer look

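In heart, miR-192-5p was highest in M library 1, at 1870.3, and its gap to the next of the 6 heart libraries was 0.639 of their range, above Dixon's 95% critical value for 6 samples. Chance gives about 1 such sample in 20 groups, and 7 groups of member values were examined.

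The M against CK change of miR-192-5p differed between heart and exosome tables by 1.48 on the log2(level + 1) scale (exact two-sided permutation test, p = 0.01, unadjusted over 3 miRNAs). That p is against no change in either table, so a change in the exosome table alone can also lower it. All 3 exosome M libraries were lower than CK, and heart M and CK overlapped.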

How the results depend on the processing

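No paired analysis was possible because the columns carry no replicate numbers and the recovered libraries cannot be matched to samples. Of 139 alternative log2 folds, 17 took the direction opposite to the deposited fold; miR-122-5p in both tables, miR-192-5p in the exosome table and miR-194-5p in heart kept it in all 18 each. Upper-quartile scaling moved miR-192-5p in heart to -0.000599, and shifted every log2 fold by -0.37 in heart and -0.41 in the exosome table. The share of the column sum shifted them by -0.17 and -0.13. Without 1 library the log2 fold of the means ran, in heart, from 1.60 to 3.07 for miR-122-5p, 0.16 to 0.48 for miR-192-5p, -0.46 to -0.03 for miR-194-5p and -0.97 to 0.76 for miR-194-3p. In the exosome table it ran from -1.83 to -0.41 for miR-122-5p, -1.45 to -0.92 for miR-192-5p, -0.39 to 1.64 for miR-194-5p and -0.54 to 1.25 for miR-122-3p. In limma it ran, in heart, from 1.19 to 2.93 for miR-122-5p, and in the exosome table from -1.90 to -0.57. Its adjusted p then ran from 1.17e-05 to 0.373 and from 0.0029 to 0.665. The difference between tables ran from 2.39 to 4.13 for miR-122-5p. Leaving the 10 most abundant miRNAs out of the denominator gave, for CK and M, 10.5 and 59.9 ppm of miR-122-5p in heart and 34526 and 17676 ppm in the exosome table. It gave 699 and 876 ppm of miR-192-5p in heart and 2246 and 902 ppm in the exosome table, and 164 and 136 ppm and 125 and 139 ppm of miR-194-5p. These follow from the smaller denominator. Counts past the threshold were 44 in heart and 51 in the exosome table at an unadjusted p below 0.05, with 1 exosome member among the latter. They were 22 in the exosome table at an adjusted p below 0.1, and 0 in heart and 1 in the exosome table below 0.01. With a pseudocount of 10, 1 of the 3 miRNAs most like miR-192-5p was named again; the cause was not tested. At a mean of at least 100 no likeness could be given for miR-122-5p, whose heart mean is below it. Depth limits miR-122-5p in heart, with 14 to 97 reads per library, and the heart 3p arms, at 0 to 2 reads for miR-122 and miR-192 and 2 to 19 for miR-194.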

Other observations

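Within the exosome table the library orders of the liver miRNAs were unlike each other, a pattern picked after the values were seen and not tested. miR-194-5p was highest in CK library 1 and M library 3, at 242 and 235, and lowest in CK library 3 and M library 1, at 28.3 and 30.0. miR-122-5p was highest in those last 2 libraries, at 38585 and 33934, and lowest in M library 3, at 5380.3. Within each group, though not over all 6 libraries, the red cell miRNA miR-144-3p had the order of miR-194-5p, with 644, 321 and 65.7 in CK and 53.4, 293 and 603 in M. Within each group the muscle miRNA miR-133a-3p had it too, with 668, 368 and 257 in CK and 43.0, 259 and 642 in M. Other names of the same lists were mixed. The red cell miRNA miR-144-5p also had the order of miR-194-5p within each group, with 822, 705 and 301 in CK and 998, 1339 and 2286 in M. miR-363-3p, also of red cells, had the reverse, with 161, 259 and 415 in CK and 380, 317 and 245 in M. The muscle miRNA miR-499-5p did not have it, with 47.0, 83.8 and 72.7 in CK and 237, 73.0 and 0 in M. Nor did miR-192-5p have the order of miR-194-5p.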
